A study of Mus musculus with 16 samples.

Results

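The genes described here are 10 genes of cardiac muscle, taken by name from a table of 23284 genes: Tnnt2, Tnnc1 and Actc1 of the thin filament, the myosin heavy chains Myh6 and Myh7, the light chains Myl7 and Myl4, the calcium channel Ryr2, and the transcription factors Nkx2-5 and Mef2c. In heart muscle, myosin heavy chains with their light chains form the thick filaments that pull on thin filaments of actin, and the troponin complex makes that pull depend on calcium. Ryr2, the cardiac ryanodine receptor, releases the calcium from the sarcoplasmic reticulum. Nkx2-5 and Mef2c bind DNA in heart precursors and act upstream of many contractile genes, and beating patches of such cells form in mouse embryoid bodies.

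Expression was measured by strand-specific RNA sequencing of polyA RNA in 16 mouse libraries, as FPKM (fragments scaled to transcript length and to the mapped total), a level per length that can be compared between genes. Of these, 4 were of embryoid bodies (EBs), aggregates in which pluripotent cells differentiate, and 12 were of induced pluripotent stem cells (iPSCs). The iPSCs came from mouse embryonic fibroblasts, were grown on feeder cells, and carried the genotype ColA1_miR203; Rosa26rtTA, in which doxycycline turns on the microRNA miR-203. According to the series design, doxycycline was given for 5 days to compare iPSCs over time, and EBs were taken 7 days into differentiation.

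Each title joins a prefix (KIX or KI), a letter (D or V) and either EB or 1 of the numbers 1, 4 and 10, and the labels define none of these codes. Every library, EBs included, is labelled with the same genotype and the same treatment, DOX during 5-7 days, so no library is labelled as untreated. The groups used here are KIX EB and KI EB, then KIX and KI at numbers 1, 4 and 10, with the D and V library of each as 2 replicates. No label says whether D and V came from separate cultures, and the p-values reflect library-to-library spread, which may be technical. EBs here are pooled tissue: fewer heart muscle cells and less RNA per cell cannot be told apart.

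The listed level of Mir203 itself did not follow the shared treatment label. It was 1868 and 1969 FPKM in the KIX libraries at number 1 and 2254 and 1728 FPKM at number 4, against 0 in every KI library at those numbers. At number 10 it was listed at 0 in both prefixes. Among the EBs it was 212.4 FPKM in KIXDEB, 0 in KIXVEB, 0 in KIDEB and 90.1 FPKM in KIVEB. Summed FPKM was 612598 to 724350 per library, with 12117 to 12501 genes at 1 FPKM or more, and sequencing depth is unknown.

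A library of EBs, KIXVEB, stood apart in these genes. Counts or differences between EB groups are given below with and without it. For the gene lists this alternative was chosen after seeing the data. A fit without a library leaves its group with a lone library, so its calls borrow the spread of other groups and are descriptions. The FPKM of KIXVEB for a cardiac gene was 1.98 to 7.08 times the mean of the other 3 EB libraries, with a median of 5.00. Of the 10 genes, 8 were at least 2 times as high in KIXVEB as in the next EB library, a rule set after the values were seen, against 1.44% of all tested genes.

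The genes lie on mouse chromosomes 1, 2, 11, 13, 14 and 17, and of these Myh6 and Myh7 are neighbours. In GENCODE's annotation of GRCm38, Myh6 spans chr14:54941921-54966927 and Myh7 spans chr14:54970684-54994626, both on the minus strand. The promoters of 4 genes follow, since their EB levels below run from the highest (Actc1) to among the lowest (Ryr2). Each covers 300 bases around a RefSeq transcript start (GRCm38.p6), most of them before it, 5′ to 3′, with motif matches in capitals.
Actc1 promoter, chr2:114052826-114053125, minus strand: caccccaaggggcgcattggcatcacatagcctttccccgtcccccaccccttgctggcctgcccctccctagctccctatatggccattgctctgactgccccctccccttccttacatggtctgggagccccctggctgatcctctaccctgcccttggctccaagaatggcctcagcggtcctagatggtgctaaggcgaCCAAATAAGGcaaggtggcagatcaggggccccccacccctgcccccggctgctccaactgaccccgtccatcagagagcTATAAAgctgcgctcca
Myh6 promoter, chr14:54966558-54966857, minus strand: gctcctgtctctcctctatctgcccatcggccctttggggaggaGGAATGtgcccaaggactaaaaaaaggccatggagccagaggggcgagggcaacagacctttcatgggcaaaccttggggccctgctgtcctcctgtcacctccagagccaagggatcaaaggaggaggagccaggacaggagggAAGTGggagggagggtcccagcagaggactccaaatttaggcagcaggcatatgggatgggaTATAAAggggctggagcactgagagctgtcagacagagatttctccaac
Myl7 promoter, chr11:5898733-5899032, minus strand: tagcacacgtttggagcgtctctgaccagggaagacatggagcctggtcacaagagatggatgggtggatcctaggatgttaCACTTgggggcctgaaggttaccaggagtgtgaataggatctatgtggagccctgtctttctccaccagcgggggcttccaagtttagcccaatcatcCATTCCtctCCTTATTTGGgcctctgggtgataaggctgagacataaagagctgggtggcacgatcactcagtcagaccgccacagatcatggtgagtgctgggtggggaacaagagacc
Ryr2 promoter, chr13:12106896-12107195, minus strand: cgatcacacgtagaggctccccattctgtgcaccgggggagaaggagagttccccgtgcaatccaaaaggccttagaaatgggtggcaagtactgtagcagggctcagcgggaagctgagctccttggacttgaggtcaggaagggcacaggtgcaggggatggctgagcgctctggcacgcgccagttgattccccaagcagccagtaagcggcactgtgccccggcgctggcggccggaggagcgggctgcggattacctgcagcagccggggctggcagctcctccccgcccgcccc
Both strands were searched for the CArG box bound by serum response factor, the MEF2 site, and for TATAAA of the core promoter, AGATAA of factors such as Gata4, AAGTG of Nkx2-5 and its relatives, and CATTCC of the TEAD family. No 2 matches overlap in the promoters printed.

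A CArG box was in the Actc1 promoter, from base -47 to base -38 relative to the start, and in the Myl7 promoter, from base -61 to base -52. Of 32851 promoters of the same length, 1.63% hold one. TATAAA was in 4 of the 14 promoters that RefSeq gives for the 10 genes, against 13.6% of all promoters, and AAGTG in 8 of 14, against 46.4%. In Actc1 and Myh6, TATAAA lay after the start used, from base 34 to base 39 and from base 2 to base 7. In Mef2c it lay before the start, on the opposite strand. All positions depend on the start that RefSeq gives. CATTCC was in 6 of 14, against 14.7%, and AGATAA in 1 of 14, against 11.2%. The MEF2 site was in 0 of 14, against 3.19% of all promoters, and no motif searched was in the Ryr2 window. These are matches of letters in a short window and not sites shown to be bound.

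The mature miR-203 is shown with its seed, bases 2 to 8, in capitals, because the study induced it and its seed pairs with the letters CATTTCA in a transcript. RefSeq places it at chr12:112130927-112130948 on the plus strand (GRCm38.p6).
miR-203-3p: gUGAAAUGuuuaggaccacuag
Among the 10 genes, CATTTCA occurred in the annotated 3′ UTR of Mef2c alone, at the 3 places below with 10 bases on each side, and 17.6% of 18173 genes with an annotated 3′ UTR hold it.
Mef2c site at base 1386 of the annotated UTR: gatctctcttCATTTCAccatacatct
Mef2c site at base 1807 of the annotated UTR: atttaacagcCATTTCAagaaatccca
Mef2c site at base 2350 of the annotated UTR: agacatcaacCATTTCAcatatattct
Mef2c was at 0.153 and 0.177 FPKM in the KIX iPSCs at number 4, where Mir203 was listed high, against 0.135 and 0.148 FPKM in KI iPSCs. At number 1, where Mir203 was listed high in KIX too, Mef2c was at 0.336 and 0.269 FPKM in KIX, against 0.412 and 0.318 FPKM in KI. All of these levels are under 1 FPKM, so they did not pass the filter on low values described below.

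**Figure D1:**
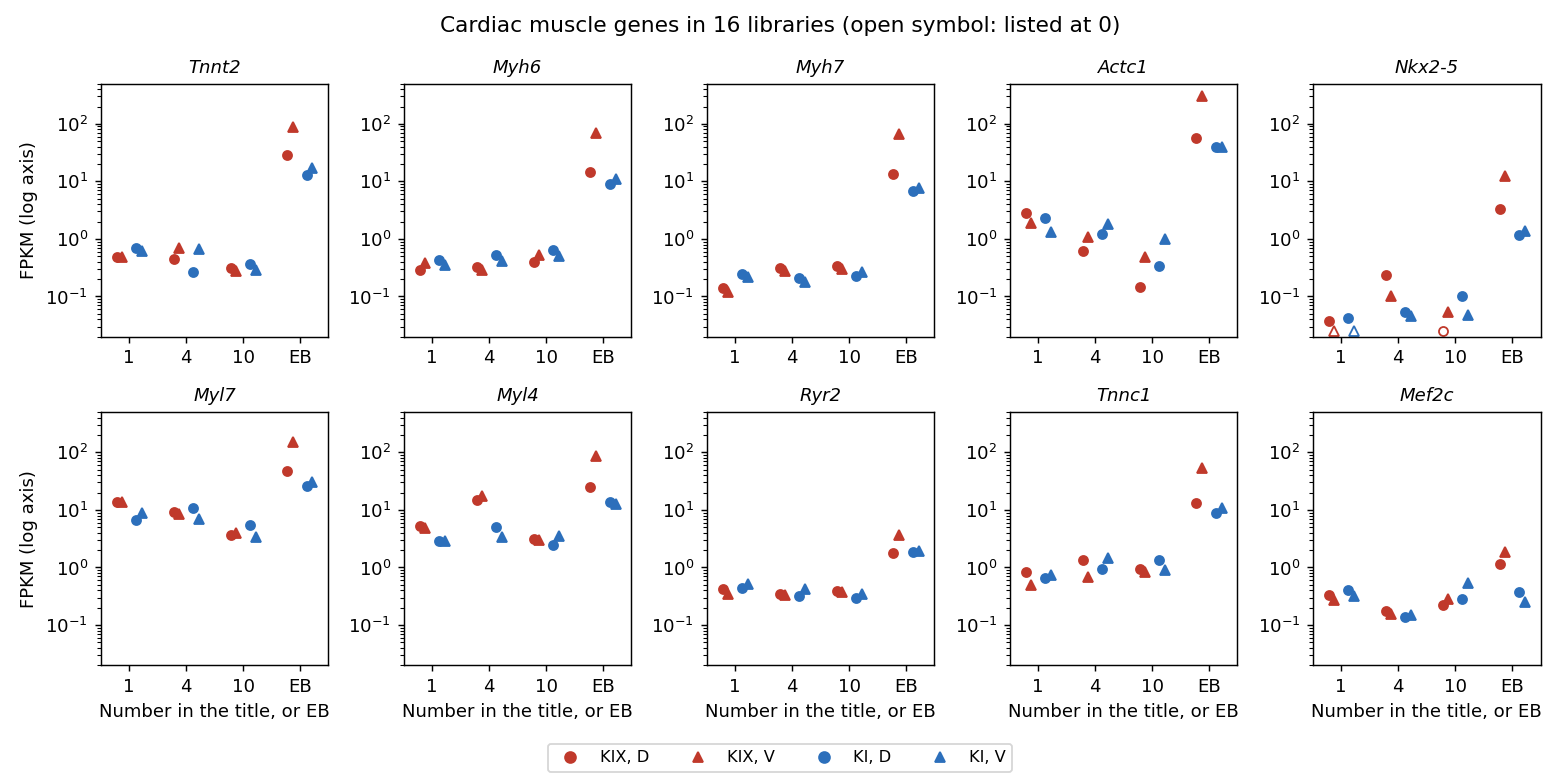
FPKM of the 10 cardiac muscle genes (log axis) in each of 16 libraries, by the number in the title or EB, with a symbol for each prefix and letter and open symbols for values listed at 0. The EB libraries are the highest for 8 of the 10 genes, and KIXVEB is the top point in every panel.

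All 10 genes had higher levels in EBs than in iPSCs by the test, and for 8 of them no EB library overlapped an iPSC library. The share of all tested genes without such overlap was not counted, so the 8 is a description. Differences were tested as log2(FPKM + 1) with limma, a linear model whose p-values were adjusted over 13895 tested genes, and "called" means an adjusted p under 0.05. Of all tested genes, 86.6% were called between EBs and iPSCs, and 44.4% were called as higher in EBs. Tnnt2, Myh6, Myh7, Nkx2-5, Ryr2 and Mef2c passed the filter on low values only through the EBs, so their calls follow from the filter in part and the count of 10 is a description.

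Tnnt2, the cardiac troponin that ties the complex to tropomyosin, was at 28.7 FPKM in KIXDEB, 87.7 in KIXVEB, 12.9 in KIDEB and 17.2 in KIVEB. In the 12 iPSC libraries it ran from 0.268 to 0.703 FPKM, with a median of 0.460. The lowest EB library was 18.4 times the highest iPSC library. On the log2 scale the difference was 4.30 (SE 0.21, limma adjusted p = 3.36e-09), and 3.90 without KIXVEB.

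Actc1, the alpha-actin of heart muscle, had the highest level of the 10 in every EB library: 57.1 FPKM in KIXDEB, 310.3 in KIXVEB, 39.2 in KIDEB and 40.4 in KIVEB. Its iPSC levels were 0.146 to 2.82 FPKM with a median of 1.15. The groups did not overlap, and the log2 difference of 5.13 (SE 0.33, limma adjusted p = 3.54e-08) was the largest among the 10. Cufflinks can split reads between actin genes of close sequence, so the exact share of Actc1 is uncertain. Among the other muscle actins, Acta1 of skeletal muscle was at 0.858 to 1.59 FPKM in the EBs. It was lower there than in the mean of the iPSC groups, with a log2 difference of -0.72 (limma adjusted p = 0.00300). Its iPSC levels were 4.45 to 10.7 FPKM at number 1 but 0.279 to 1.27 FPKM at number 10. The lower EB level thus does not hold against number 10. Acta2 was not called (0.24, adjusted p = 0.254), and Actg2 of enteric smooth muscle was higher in EBs on average (0.46, adjusted p = 0.0213). Actg2 was at 6.63 FPKM in KIXDEB and 2.42 in KIXVEB, but at 0.123 in KIDEB and 0.0341 in KIVEB. In iPSCs it ran from 0.121 to 2.28 FPKM, so the KI EBs did not share the rise.

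Tnnc1, the calcium-binding troponin of heart and slow muscle, was at 13.4 FPKM in KIXDEB, 54.0 in KIXVEB, 8.86 in KIDEB and 10.8 in KIVEB. In iPSCs it lay between 0.496 and 1.45 FPKM, median 0.877, below every EB library. The log2 difference was 3.19 (SE 0.26, limma adjusted p = 2.91e-07).

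Myh6 encodes the alpha and Myh7 the beta heavy chain of cardiac myosin; in mice Myh7 prevails in the fetal ventricle and Myh6 after birth. Myh6 was at 14.6 FPKM in KIXDEB, 68.6 in KIXVEB, 9.12 in KIDEB and 11.0 in KIVEB, against 0.284 to 0.634 FPKM in iPSCs (median 0.407). Myh7 was at 13.5 FPKM in KIXDEB, 65.7 in KIXVEB, 6.75 in KIDEB and 7.55 in KIVEB, against 0.118 to 0.338 FPKM in iPSCs (median 0.236). Neither gene had an EB library near the iPSC range. The log2 differences were 3.75 (SE 0.27, limma adjusted p = 1.06e-07) for Myh6 and 3.69 (SE 0.28, limma adjusted p = 1.32e-07) for Myh7. The coding sequences of this pair are alike, so their split of reads is uncertain too.

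The ratio of Myh6 to Myh7 within a library was 1.08 in KIXDEB and 1.04 in KIXVEB, against 1.35 in KIDEB and 1.46 in KIVEB. Both KIX EBs thus had the heavy chains near parity, and both KI EBs had more Myh6 than Myh7. The difference in this ratio was not tested.

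Myl7, the atrial regulatory light chain, was at 46.8 FPKM in KIXDEB, 150.1 in KIXVEB, 26.0 in KIDEB and 30.4 in KIVEB. Its iPSC levels were far from 0, at 3.45 to 13.9 FPKM with a median of 7.79, and the lowest EB library was 1.88 times the highest of them. The log2 difference was 2.59 (SE 0.24, limma adjusted p = 7.96e-07).

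Myl4, the essential light chain of atrial and fetal muscle, was at 25.3 FPKM in KIXDEB, 87.5 in KIXVEB, 13.6 in KIDEB and 12.7 in KIVEB. Its iPSC levels were 2.50 to 17.2 FPKM with a median of 3.47, and here the groups overlapped. The overlap came from the KIX iPSCs at number 4, with 14.8 and 17.2 FPKM, both above the 2 KI EBs. The log2 difference was 2.197 (SE 0.23, limma adjusted p = 3.26e-06).

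Ryr2 was low throughout, at 1.78 FPKM in KIXDEB, 3.69 in KIXVEB, 1.85 in KIDEB and 1.96 in KIVEB. In iPSCs it was 0.298 to 0.508 FPKM with a median of 0.362. The groups did not overlap, and the log2 difference was 1.23 (SE 0.10, limma adjusted p = 3.04e-07).

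Nkx2-5, the homeobox factor of heart precursors, was at 3.35 FPKM in KIXDEB, 12.3 in KIXVEB, 1.19 in KIDEB and 1.40 in KIVEB. The highest iPSC library had 0.238 FPKM, and the median was 0.0468. Its log2 difference was 1.98 (SE 0.21, limma adjusted p = 2.58e-06), a value that the pseudocount of 1 holds down at such levels.

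Mef2c had the smallest difference of the 10. It was at 1.14 FPKM in KIXDEB and 1.83 in KIXVEB, but at 0.372 in KIDEB and 0.250 in KIVEB, within the iPSC range of 0.135 to 0.538 FPKM. The log2 difference was 0.50 (SE 0.07, limma adjusted p = 4.81e-05). With KIXDEB or KIXVEB left out, Mef2c was below the filter and was not tested, and the other 9 genes were called without KIXVEB, with log2 differences from 1.05 (Ryr2) to 4.52 (Actc1). Between these lay Tnnt2 (3.90), Myh6 (3.21), Myh7 (3.14), Tnnc1 (2.71), Myl7 (2.17), Myl4 (1.76) and Nkx2-5 (1.58).

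Levels were higher in KIX EBs than in KI EBs for 9 of the 10 genes by the test, with Ryr2 as the exception. In these 9 both KIX libraries were above both KI libraries, an order that 27.4% of all tested genes had; this rule was set after the values were seen. Of all tested genes, 27.3% were called in either direction and 12.4% as higher in KIX. The median difference of the 10 genes was 1.63 on the log2 scale, against -0.03 over all tested genes. Without KIXVEB the median of the 9 genes tested was 0.71, against -0.04 over all tested genes, of which 17.7% were called.

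Among the thin filament genes, the log2 difference of KIX from KI EBs was 1.69 for Tnnt2 (SE 0.37, limma adjusted p = 0.00700), 1.72 for Actc1 (SE 0.57, adjusted p = 0.0466) and 1.38 for Tnnc1 (SE 0.45, adjusted p = 0.0423). For the heavy chains it was 1.58 for Myh6 (SE 0.47, limma adjusted p = 0.0304) and 1.93 for Myh7 (SE 0.48, adjusted p = 0.0127). The light chains differed by 1.54 for Myl7 (SE 0.41, limma adjusted p = 0.0177) and 1.77 for Myl4 (SE 0.41, adjusted p = 0.00905). These 7 contractile genes thus differed by 1.38 to 1.93. The calls of Actc1 and Tnnc1 were lost with a pseudocount of 0.1 (adjusted p = 0.0966 and 0.0642) and without the filter (0.0693 and 0.0636), and that of Actc1 on the TPM scale (0.0517).

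The transcription factors were higher in KIX EBs as well, by 1.73 on the log2 scale for Nkx2-5 (SE 0.36, limma adjusted p = 0.00515) and 0.91 for Mef2c (SE 0.13, adjusted p = 0.000619). Only the 2 KIX EBs had Mef2c at 1 FPKM or more. It thus passed the filter through the group where it was high, and its call follows from the filter in part. Ryr2 did not pass, with a difference of 0.32 and a 95% interval from -0.07 to 0.70 (limma adjusted p = 0.212). Its KIXDEB level was the lowest of the 4 EB libraries.

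**Figure D2:**
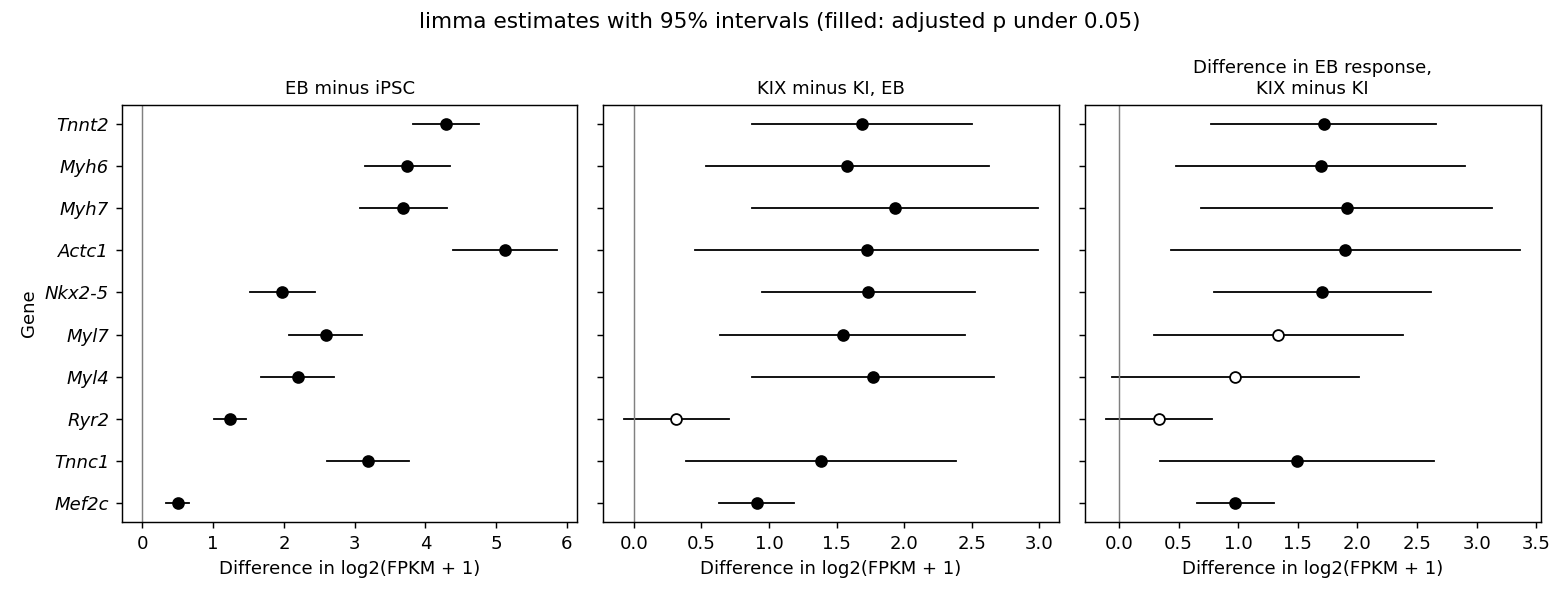
Differences in log2(FPKM + 1) with 95% intervals for the 10 genes, estimated by limma, for EB minus iPSC, KIX minus KI in EBs, and the EB change in KIX minus that in KI; filled points have an adjusted p under 0.05. All 10 points are filled in the first comparison, 9 in the second and 7 in the third.

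These calls rest on the spread over all 16 libraries. With the 4 EB libraries alone, the differences were the same but 1 of the 10 genes was called, where 1477 of 12498 tested genes were. This gene was Mef2c, which passed the filter only through the KIX EBs. KIXDEB alone also exceeded both KI libraries in 9 genes, by less: its level was 0.937 times the KI EB mean for Ryr2, 1.36 times for Tnnc1 and 3.67 times for Mef2c, the lowest to the highest of the 10, with a median of 1.77. Without KIXVEB, KIXDEB was the lone KIX EB library, so the fit held no spread between KIX EBs and sizes alone are given. The log2 differences were then 0.90 for Tnnt2, 0.50 for Myh6, 0.84 for Myh7, 0.93 for Nkx2-5 and 0.89 for Myl4. They were 0.51 for Actc1, 0.71 for Myl7, 0.42 for Tnnc1 and -0.06 for Ryr2, and Mef2c was not tested. Without KIDEB and without KIVEB, 3 genes each were called. Without KIXDEB, where KIXVEB was the lone KIX EB library, the difference of Ryr2 was 0.69 and Mef2c was not tested.

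The change from iPSCs to EBs was larger in KIX than in KI for 7 of the 10 genes, against 33% of all tested genes called in either direction and 14.8% as larger in KIX. This comparison shares its EB libraries with the one above and is given for the size of the change within each prefix. The difference was 1.72 for Tnnt2, 1.90 for Actc1, 1.49 for Tnnc1, 1.69 for Myh6, 1.91 for Myh7, 1.70 for Nkx2-5 and 0.98 for Mef2c on the log2 scale. Here too Mef2c passed the filter only through the KIX EBs, so its call follows from the filter in part. Myl7 (1.34, limma adjusted p = 0.0507) and Myl4 (0.97, adjusted p = 0.134) did not pass, nor did Ryr2 (0.34, adjusted p = 0.231).

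The call for several of these genes turned on small changes. Leaving out 1 library in turn gave 2 to 9 called genes, and 4 in 9 of those fits. With all libraries Actc1, Tnnc1 and Myh6 were near the threshold (limma adjusted p = 0.0485, 0.0480 and 0.0363). Nkx2-5 was called in all 16 of them, and Tnnt2 in all but 1. Without KIXVEB 4 genes were called, namely Tnnt2 (0.93), Myh6 (0.61), Myh7 (0.81) and Nkx2-5 (0.90), and Mef2c was not tested. Without KIDEB 2 genes were called and without KIVEB 3.

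Between the letters, D EBs had lower levels than V EBs in the estimates for all 10 genes, but none was called, and 0.0144% of all tested genes (2 of 13895) were. Only Ryr2 had an unadjusted limma p under 0.05 (0.0462). The estimates follow KIXVEB: among KIX EBs V was above D for all 10 genes, by 1.60 times (Mef2c) to 5.43 times (Actc1), while among KI EBs V over D was 0.671 (Mef2c) to 1.33 (Tnnt2). Without KIXVEB the estimate was -0.07 for Ryr2, and it was positive for the other 8 genes tested, from 0.02 (Tnnc1) to 0.52 (Myl4). Without KIVEB 6 genes were called as lower in D (Tnnt2, Myh6, Myh7, Actc1, Nkx2-5 and Tnnc1), in a fit where KIXVEB was the lone V library of EBs.

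**Figure D3:**
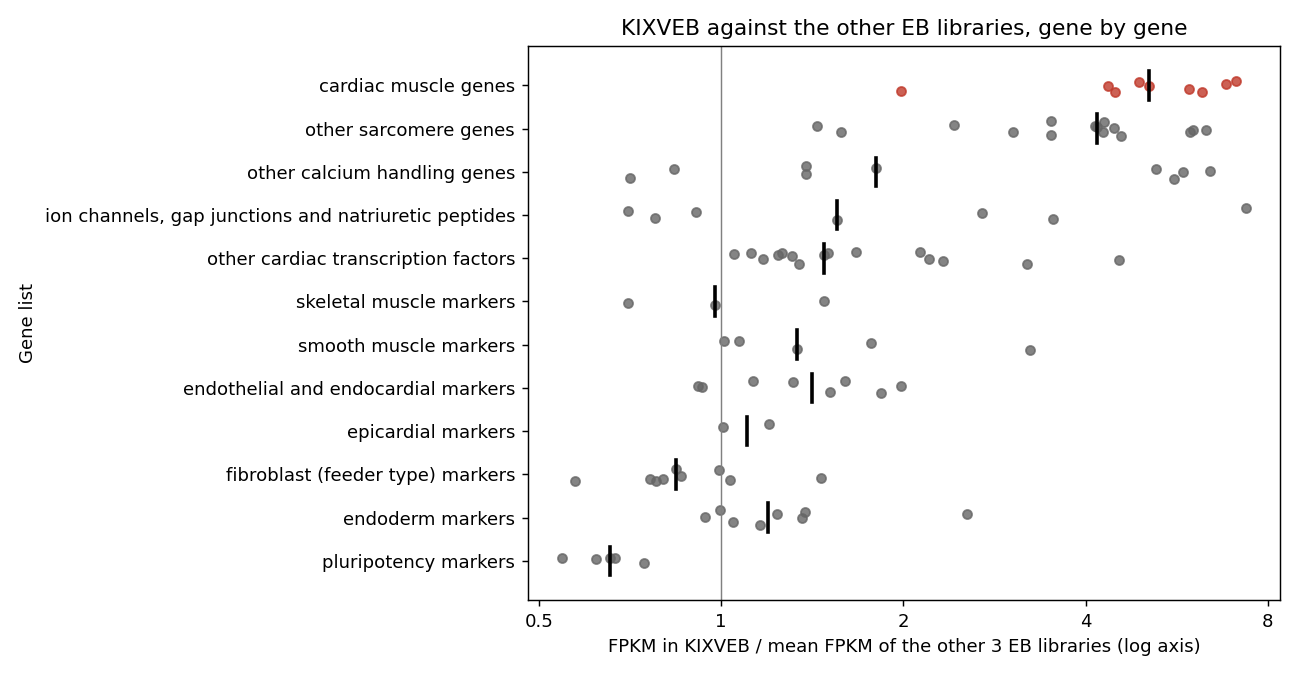
FPKM in KIXVEB over the mean of the other 3 EB libraries (log axis), a point per gene with a mean EB level of at least 1 FPKM, by gene list, with a black bar at each median. The 9 cardiac muscle genes shown lie at 1.98 to 7.08 and the other sarcomere genes at 1.44 to 6.31, while the pluripotency markers lie at 0.546 to 0.746.

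Other sarcomere genes had the high KIXVEB level too. Of 20 listed, 15 were tested, and 13 were higher and 1 lower in EBs than in iPSCs, with a median log2 difference of 1.55 against 0.02 over all tested genes. Those with the largest differences were Myl3 (4.58), a ventricular essential light chain, Myl2 (4.22), the ventricular regulatory light chain, Tnni1 (3.71), the fetal troponin I, and Mybpc3 (3.52), the cardiac myosin-binding protein. Between KIX and KI EBs 9 were higher and none lower. Without KIXVEB 14 were tested, 11 were higher and 2 lower in EBs, and 6 were higher in KIX EBs. Myl2 was at 30.6 FPKM in KIXDEB, 85.1 in KIXVEB, 20.8 in KIDEB and 21.4 in KIVEB, so a ventricular light chain was present beside the atrial Myl7. Ttn, the giant elastic protein titin, was not tested: it was at 0.345, 1.25, 0.219 and 0.263 FPKM in KIXDEB, KIXVEB, KIDEB and KIVEB.

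Of 12 other genes of calcium handling, 8 were tested, and 5 were higher and 1 lower in EBs, where 86.6% of all tested genes were called and 44.4% as higher. Pln, the phospholamban that restrains the calcium pump, was higher by 2.00 on the log2 scale and was at 2.05 FPKM in KIXDEB, 11.5 in KIXVEB, 1.35 in KIDEB and 1.97 in KIVEB. The sodium-calcium exchanger Slc8a1 was higher by 1.16 (limma), while the pump itself, Atp2a2, was lower by the test (-0.42). Between KIX and KI EBs 3 were higher, among them Jph2 (1.08) and Slc8a1 (1.13), and 2 were lower, but none of the 7 tested without KIXVEB was called between them. Slc8a1 was at 1.28 FPKM in KIXDEB and 5.33 in KIXVEB, against 0.660 in KIDEB and 0.823 in KIVEB. It passed the filter only through the KIX EBs, so its calls follow from the filter in part. Sln was listed at 0 in all 4 EB libraries.

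Ion channel, gap junction and natriuretic peptide genes gave 7 tested of 12, of which 6 were higher in EBs and none lower. Kcnj5 (2.34), a subunit of the potassium channel that acetylcholine opens, and Gja1 (1.40), the gap junction protein connexin 43, were higher in EBs but lower in KIX than in KI EBs (-0.80 and -0.47, limma). Kcne1, a small potassium channel subunit, was lower in KIX EBs too (-0.25), while Popdc2 (1.56) and the potassium channel Kcnh2 (0.82) were higher, so 2 of the 7 were higher and 3 lower. The counts were 2 and 3 without KIXVEB as well. Nppa, the atrial natriuretic peptide, was at 1.15 FPKM in KIXDEB, 14.2 in KIXVEB, 4.10 in KIDEB and 0.534 in KIVEB. Its 4 EB libraries thus had no order by prefix, and KIX against KI was not called.

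Of 20 other transcription factors of the heart, 15 were tested, and 12 were higher and 1 lower in EBs. Gata4 (6.23) and Gata6 (3.81) had the largest differences, followed by Hand1 (2.93) and Tbx20 (2.37). GATA factors also act in endoderm, and Gata4 was at 142.0 FPKM in KIXDEB, 181.4 in KIXVEB, 148.5 in KIDEB and 140.7 in KIVEB, nearly level where the contractile genes were not. Between KIX and KI EBs 9 were higher and none lower, led by Hand2 (2.23, limma adjusted p = 1.01e-05). Without KIXVEB 6 of 14 were higher and none lower, and Hand2 differed by 2.48. Hand2 was at 13.7 FPKM in KIXDEB and 9.46 in KIXVEB, against 1.65 in KIDEB and 1.63 in KIVEB, so here KIXDEB was the highest library. Summed over this list, KIXVEB was 1.32 times the mean of the other EBs, against 5.50 times for the 10 cardiac muscle genes.

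Markers of other cell types were set beside these values. Skeletal muscle shares some contractile proteins with the heart, but its defining factors were near 0 in EBs: Myod1 at most 0.192 FPKM, Myog at most 0.110 and Myf5 at most 0.0471. The skeletal heavy chains Myh1 and Myh8 were listed at 0 in all 4. Of 16 listed, 6 were tested, and 3 were higher and 3 lower in EBs. Between KIX and KI EBs 1 was higher and 1 lower. Tnnt1, also on this list, was not near 0: it was at 6.57 FPKM in KIXDEB, 12.8 in KIXVEB, 15.3 in KIDEB and 17.5 in KIVEB. Its log2 difference of EBs from iPSCs was 1.21 without KIXVEB. Mylpf, the light chain of fast muscle, was high in iPSCs as well, and was at 66.5 FPKM in KIXDEB, 61.0 in KIXVEB, 91.5 in KIDEB and 103.3 in KIVEB. Summed over the list, FPKM was 76.4 to 124.1 in EBs and 64.1 to 186.9 in iPSCs.

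The smooth muscle list had its highest sum in KIXDEB, not in KIXVEB. Of 8 listed, 5 were tested; between KIX and KI EBs 3 were higher and none lower (Acta2, Tagln and Actg2), and 2 were higher without KIXVEB (Acta2 and Actg2). Acta2, the smooth muscle actin that early heart muscle also makes, was at 57.6 FPKM in KIXDEB and 53.8 in KIXVEB, against 15.5 in KIDEB and 18.4 in KIVEB. Myh11, the defining heavy chain, was at no more than 0.0629 FPKM in any EB. The list summed to 35.3 to 89.1 FPKM in EBs and 44.9 to 315.9 FPKM in iPSCs.

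Endothelial and endocardial markers gave 8 tested of 9, with 6 higher and 1 lower in EBs, and 5 higher and 1 lower in KIX than in KI EBs (4 and 1 of 7 without KIXVEB). Their sums were 111.6 to 134.9 FPKM in EBs and 18.9 to 33.5 in iPSCs. Of the 6 epicardial markers 4 were tested, and 1 was higher and 2 lower in EBs, with sums of 2.49 to 6.75 FPKM in EBs and 4.24 to 14.9 in iPSCs. The endoderm markers were all higher in EBs (8 of 8), and 4 were higher in KIX than in KI EBs, with or without KIXVEB. The endoderm list summed to 2986 FPKM in KIXDEB and 2611 in KIXVEB, against 1558 in KIDEB and 1483 in KIVEB.

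The fibroblast markers, which feeder cells express, also moved with the prefix. All 10 were lower in EBs than in iPSCs, with sums of 24.1 to 488.8 FPKM in EBs and 1143 to 2566 in iPSCs. Between KIX and KI EBs 7 of 10 were higher and none lower: the sum was 488.8 FPKM in KIXDEB and 159.7 in KIXVEB, against 47.0 in KIDEB and 24.1 in KIVEB. Without KIXVEB 8 of the 10 were higher in KIX. The library with the most fibroblast RNA was thus not the one with the most cardiac RNA. The 5 pluripotency markers were all lower in EBs, and all 5 were lower in KIX than in KI EBs (3 without KIXVEB), with sums of 463.2 FPKM in KIXDEB and 347.2 in KIXVEB, against 644.1 in KIDEB and 659.2 in KIVEB. The part of these marker shifts in the cardiac differences was not tested.

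Of the levels per Tnnt2 within an EB library, that of Myl7 varied least, and those of Ryr2 and Mef2c varied most. Myl7 was 1.63 times Tnnt2 in KIXDEB and 1.71 times in KIXVEB, against 2.02 in KIDEB and 1.76 in KIVEB. Myl4 was 0.880 times Tnnt2 in KIXDEB and 0.998 in KIXVEB, against 1.05 in KIDEB and 0.736 in KIVEB. Actc1 varied more, at 1.99 and 3.54 times Tnnt2 in KIXDEB and KIXVEB, against 3.03 and 2.34 times in KIDEB and KIVEB. Nkx2-5 was 0.117 and 0.140 times Tnnt2 in KIXDEB and KIXVEB, against 0.0920 and 0.0811 times in KIDEB and KIVEB. The ratio of Mef2c to Tnnt2 was 0.0397 in KIXDEB and 0.0208 in KIXVEB, against 0.0288 in KIDEB and 0.0145 in KIVEB. For Ryr2 the ratio was 0.0622 in KIXDEB and 0.0421 in KIXVEB, against 0.143 in KIDEB and 0.113 in KIVEB. KIXVEB, with the highest Ryr2 level, thus had the least Ryr2 for its Tnnt2.

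Other genes most like the mean of the 10 were picked by Pearson's r over the 16 libraries, on log2(FPKM + 1). They were Csrp3 (r = 0.995), a muscle LIM protein of the Z-disc, Sh3bgr (0.993), Rasgrf1 (0.991), a Ras exchange factor, Smpx (0.990), a small muscle protein, Slc18a2 (0.990), a vesicular monoamine transporter, and Syn2 (0.990), a synapsin. Since the 4 EB libraries share the jump from iPSCs, r mostly reflects EBs against iPSCs and is a description. Csrp3 was at 4.93 FPKM in KIXDEB, 19.5 in KIXVEB, 2.14 in KIDEB and 2.74 in KIVEB, while Syn2 was at 1.07, 1.50, 0.678 and 0.605 FPKM in those libraries. Myl4 (0.879) and Mef2c (0.840) were the least like the mean of the 10.

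**Figure D4:**
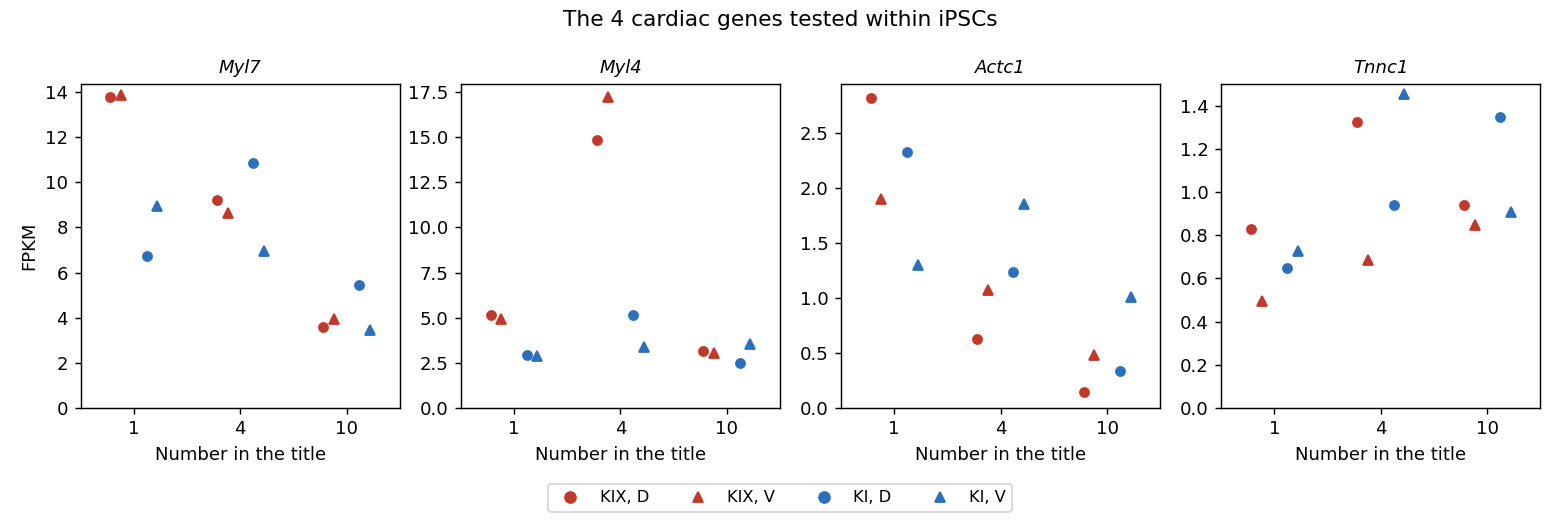
FPKM of Myl7, Myl4, Actc1 and Tnnc1 in the 12 iPSC libraries, by the number in the title, with a symbol for each prefix and letter. Myl4 in KIX at number 4 reaches 14.8 and 17.2 FPKM while the other 10 libraries stay at 5.16 FPKM or below.

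Within iPSCs, Actc1, Myl7, Myl4 and Tnnc1 passed the filter and were tested, in a fit of the 12 iPSC libraries and 13080 genes. Myl4 differed between prefixes at number 4: it was at 14.8 FPKM in KIXD4 and 17.2 in KIXV4, against 5.14 in KID4 and 3.38 in KIV4. The groups did not overlap, and the log2 difference was 1.71 (SE 0.16, limma adjusted p = 0.000342), as 1 call among 4 tested where 20% of all tested genes were called. Actc1 (-0.46), Tnnc1 (-0.14) and Myl7 (0.03) were not called at number 4.

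At number 1 none of the 4 genes was called between KIX and KI, where 2.09% of all tested genes were. Myl7 and Myl4 had unadjusted limma p-values under 0.05, with adjusted p = 0.119 and 0.0976. Myl7 was at 13.8 and 13.9 FPKM in KIXD1 and KIXV1, against 6.72 and 8.94 in KID1 and KIV1. Myl4 was at 5.16 and 4.94 FPKM in KIXD1 and KIXV1, against 2.93 and 2.87 in KID1 and KIV1. Neither pair of groups overlapped, and the differences were 0.76 and 0.63 on the log2 scale.

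At number 10 none of the 4 was called either, by adjusted or unadjusted limma p, where 25.9% of all tested genes were called. The estimates ran from -0.33 (Actc1) to 0.04 (Myl4). For Myl4 the 95% interval at number 10 was -0.33 to 0.41, against 1.34 to 2.09 at number 4.

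Over the numbers, averaged over KIX and KI, Myl4 was higher at 4 than at 1 by 0.95 on the log2 scale (SE 0.12, limma adjusted p = 0.000475), where 41% of all tested genes were called. It was lower at 10 than at 4 by the test (-1.21, adjusted p = 8.89e-05), where 42.7% of all tested genes were. Its mean was 5.05 FPKM at number 1, 16.04 at 4 and 3.11 at 10 in KIX, and 2.90, 4.26 and 3.03 FPKM at those numbers in KI. The order of its 8 group means was KIX EB (56.4), KIX 4 (16.04), KI EB (13.1), KIX 1 (5.05), KI 4 (4.26), KIX 10 (3.11), KI 10 (3.03) and KI 1 (2.90). Neighbours in this order lie within the larger of their SDs, except KIX 4 with KI EB and KI EB with KIX 1.

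Myl7 was lower at 10 than at both earlier numbers, with a log2 difference of -0.96 from number 4 (limma adjusted p = 0.00132) and of -1.17 from number 1 (adjusted p = 0.000258), where 54% of all tested genes were called. Over the 4 libraries of each number it averaged 10.8 ± 3.58 FPKM at 1, 8.91 ± 1.61 at 4 and 4.11 ± 0.911 at 10 (SD, n = 4). Actc1 was lower at 10 as well, with a log2 difference of -0.56 from number 4 (limma adjusted p = 0.0397) and of -1.06 from number 1 (adjusted p = 0.00150). It averaged 2.09 ± 0.643 FPKM at 1, 1.20 ± 0.509 at 4 and 0.492 ± 0.372 at 10 (SD, n = 4). The call against number 4 was lost without the filter (adjusted p = 0.0636), with the spread of all 16 libraries (0.297) and in 4 of the 8 fits that each left out 1 library, while that against number 1 was kept in all 8. Tnnc1 was not called between any pair of numbers, at means of 0.675, 1.10 and 1.01 FPKM for 1, 4 and 10.

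Smooth muscle and other muscle actin transcripts were also lower at 10 than at 1, with log2 differences of -1.86 for Acta2, -1.92 for Tagln and -2.26 for Acta1 (limma). Acta1 was at 0.279 to 1.27 FPKM at number 10, against 4.45 to 10.7 FPKM at number 1, so Acta1 and Acta2 were called in the same direction as Actc1 there. Fibroblast markers had no such shared direction, with Lum (-0.93) and Fap (-0.30) lower and Pdgfrb (1.23) and Col3a1 (0.60) higher at 10 than at 1.

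The other 6 genes stayed under 1 FPKM in all 12 iPSC libraries and did not pass the filter there. Tnnt2 averaged 0.573 ± 0.106 FPKM at number 1, 0.514 ± 0.198 at 4 and 0.309 ± 0.0361 at 10 (SD, n = 4). Myh6 averaged 0.364, 0.388 and 0.517 FPKM, Myh7 0.181, 0.243 and 0.282 FPKM, and Ryr2 0.430, 0.355 and 0.350 FPKM at those numbers. Nkx2-5 was listed at 0 in KIXV1, KIV1 and KIXD10 and was at most 0.238 FPKM, in KIXD4. Mef2c averaged 0.334 FPKM at number 1, 0.153 at 4 and 0.333 at 10, and each library at 4 was below every library at 1 and at 10. With the spread of all 16 libraries, these 6 genes pass the filter through the EBs. In that fit limma called none of them between numbers or prefixes in iPSCs. The lowest adjusted p was 0.0873, for Mef2c at 4 against 1. The spread there includes the EB libraries, so this fit cannot decide on small differences within iPSCs. Calls that appear when the filter is removed are given with the other alternatives.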

How the data were processed

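The authors deposited 1 table of FPKM values for 23284 genes, with a column for each of the 16 libraries. The submitters' processing notes name Cufflinks 2.2.1, TopHat2 2.0.10, FastQC, SAMtools 0.1.19 and Bowtie 1.0.0, with GRCm38 (mm10). Settings and annotation are not given in the sources used here. Because FPKM is a share per length, a rise in abundant transcripts lowers all others. Whole reads could not be recovered: among 14666 low values in 1799 genes, 72.4% were whole multiples to within 0.1. Depth is therefore unknown and no count model was used.

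Tests used limma 3.58.1 (R 4.3.3) on log2 values with a pseudocount of 1 FPKM (two-sided, empirical Bayes with a trend, Benjamini-Hochberg adjustment at 0.05 over all tested genes), keeping genes that reached 1 FPKM in 2 or more of the fitted libraries. Group means by prefix and number or EB were fitted over 16 libraries for comparisons with EBs and over the 12 iPSC libraries otherwise, and D against V over letter by number or EB means. The scripts were checked on simulated data.

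All 10 genes are named in every comparison, and the lists named are those for sarcomere, calcium handling, channels, transcription factors, skeletal and smooth muscle, endothelium, epicardium, fibroblasts, endoderm and pluripotency. No gene of the endothelial, epicardial, endoderm or pluripotency lists is named, and only their counts or sums are given. From the other lists some of the called genes are named, but not all of them. Ttn, Sln and the low skeletal and smooth muscle markers were named after their values were seen. The genes, lists and tests were chosen with earlier results of these data known. Alternatives were another pseudocount, other filters, quantile and TPM scaling, the replicate letter as a block, EB libraries alone and leaving out each library. Promoters and miR-203 come from RefSeq (GRCm38.p6), and 3′ UTRs and gene positions from GENCODE M21 (GRCm38).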

Additional observations from a re-analysis of the deposited data

Results flagged for a closer look

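In 7 of the 10 genes the KIXVEB library lay so far from the other 3 EB libraries that the gap passed Dixon's 95% limit for 4 values. Its levels were 68.6 FPKM for Myh6, 65.7 for Myh7, 310.3 for Actc1, 150.1 for Myl7, 87.5 for Myl4, 3.69 for Ryr2 and 54.0 for Tnnc1. All 7 came from EBs, out of 40 sets of 4 libraries examined, and chance alone would pass the limit in about 1 set in 20. The 10 genes share those libraries, so the 7 are not independent. The limit was applied to these 10 genes alone, so the share of all genes that pass it is unknown. The rate of 1 in 20 assumes normal values, and FPKM was used without logs. Tnnt2, Nkx2-5 and Mef2c also had their highest EB level in KIXVEB, with KIXDEB between it and the KI libraries.

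The change from iPSCs to EBs was larger in KIX than in KI, by limma's test of the difference, for Tnnt2 (1.72 on the log2 scale), Myh6 (1.69), Myh7 (1.91), Actc1 (1.90), Nkx2-5 (1.70), Tnnc1 (1.49) and Mef2c (0.98). In both KIX EB libraries these 7 genes were above both KI EB libraries. The part of KIXVEB in this is given by the values without it: 0.93 for Tnnt2, 0.61 for Myh6, 0.81 for Myh7, 0.69 for Actc1, 0.90 for Nkx2-5 and 0.53 for Tnnc1, of which Actc1 and Tnnc1 no longer passed the threshold. Mef2c, which passed the filter on low values only through the KIX EBs, was then below it.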

How the results depend on the processing

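The count of genes higher in EBs than in iPSCs was 10 under every alternative that tested all 10, and 8 of 8 with a filter on the mean. KIX against KI in EBs gave 9 called genes, 7 with a pseudocount of 0.1 and 7 without a filter (Actc1 and Tnnc1 lost their calls), 8 on the TPM scale (without Actc1), 1 from the EB libraries alone and 3 to 9 with a library left out, where a group of 1 library is assumed to vary like the others. The difference in EB response gave 7, then 4 without a filter, 4 with a filter on the mean and 2 to 9 with a library left out. Without a filter, KIX against KI at number 4 gave 2 called genes, number 4 against 1 gave 3 and number 10 against 1 gave 5. Genes under 1 FPKM were then tested. With the spread of all 16 libraries none of those 6 genes was called between numbers or prefixes in iPSCs. That spread includes the EB libraries, so it cannot decide on differences this small. For Myh7 at 10 against 1 (0.12) the limma adjusted p was 0.00234 without a filter and 0.797 with that spread. Number 4 against 1 gave 1 to 2 and D against V in EBs 0 to 6 with a library left out. Over all alternatives and single genes, 841 estimates kept direction and side of the threshold, 88 lost a call, 17 gained one and 24 that were not called changed sign. Over all genes, KIX against KI gave 3796 calls in EBs, 1477 from EB libraries alone and 1946 to 3209 with a library left out, and the difference in response 4585 and 2757 to 5042. With a library left out, the counts were 25 to 87 against 273 at number 1, 870 to 3857 against 2612 at number 4 and 503 to 2748 against 3384 at number 10. D against V in EBs gave 2 genes, 6 without a filter, 6 from EB libraries alone and 4 to 40 with a library left out. The cause of these shifts was not tested beyond the smaller number of samples or larger number of genes.

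The letters D and V recur in every group, but deviations of same-letter libraries of KIX and KI correlated across genes at only -0.0587 to 0.113 within a number or EB, so the letter was not taken as a pairing. With the letter as a replicate block, the 10 genes gave 10 calls for EBs against iPSCs, 9 for KIX against KI in EBs and 6 for the difference in response, where Tnnc1 lost its call, and it changed no other call of the 10 genes. With 2 libraries in a group and unknown depth, no counting error was estimated for low levels, such as Mef2c and Nkx2-5 in iPSCs.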
